A study of Mus musculus with 12 samples.

Results

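The 45 genes described here encode the machinery that builds ribosomes. They were chosen by name, with earlier results of these data known, and grouped by role. The groups were 3 subunits of RNA polymerase I and 5 nucleolar factors that act around transcription and packaging of ribosomal RNA (rRNA). There were 7 proteins of small nucleolar ribonucleoprotein particles (snoRNPs) and 9 factors of the small subunit processome. The rest were 4 late small subunit factors, 16 large subunit factors, and Cad. Cad encodes the enzyme that starts pyrimidine synthesis and is not itself an assembly factor. Of the 45 genes, 44 were measured, among 22184 genes tested in all. Tsr1, a late small subunit factor, was left out, since the annotation gives its probe set several gene symbols.

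Ribosome production begins in the nucleolus, where RNA polymerase I transcribes a long precursor rRNA. Box C/D snoRNPs guide methylation of that precursor and box H/ACA snoRNPs guide the conversion of uridine to pseudouridine, while the small subunit processome folds and cleaves the part that becomes 18S rRNA. Separate sets of factors mature the large subunit, and the transcription factor Myc is known to activate many of these genes in dividing cells.

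RNA of dendritic cells (DCs) and their progenitors, taken from C57Bl/6 mice at steady state, was hybridised to 12 whole-transcript arrays made by Affymetrix. Every group, the progenitor used as reference included, carried the same reporter genotype, Zbtb46GFP/+, with GFP in an allele of Zbtb46, which encodes a transcription factor that marks classical DCs. Tissue came from 8 to 10 littermates, cells were sorted to over 95% purity, and whether the arrays within a group represent different pools is not stated. P-values therefore reflect the variation among these arrays alone, part or all of which may be technical. Ages are not given in the labels. From bone marrow, the common DC progenitor (CDP, 3 arrays) was lineage-negative, intermediate for CD117, CD135+ and CD115+, and negative for CD11c and MHC class II. The pre-CD4 progenitor (2 arrays) was lineage-negative, CD117 low, CD135+, CD115+, CD11c+ and negative for MHC class II. The pre-CD8 progenitor (2 arrays) was lineage-negative, CD135+, CD11c+, intermediate for CD117 and MHC class II, and negative for Siglec H. The other two groups were mature DCs of spleen. CD172a DC (2 arrays) were CD11c+, MHC class II+ and CD172a+. CD24 DC (3 arrays) were CD11c+, CD24+ and CD172a-, and are labelled negative for MHC class II, although the MHC class II chain H2-Ab1 had a mean log2 level of 12.19 there and 11.92 in CD172a DC. On the 2 pre-CD4 arrays, also labelled negative, H2-Ab1 was at 8.17 and 10.20, and its mean in CDP was 6.59. CD172a DC and CD24 DC are usually assigned to the lineages that pre-CD4 and pre-CD8 cells supply.

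Values are log2 expression as deposited, so a difference of -1 is a level lower by a factor of 2. Levels are not compared between genes, because each probe set has its own brightness. Differences are given ± standard error (SE) from a single limma fit of all 12 arrays, with p-values adjusted by the Benjamini-Hochberg method over the 22184 genes, and genes with an adjusted p below 0.05 are described as called. Array means were almost equal (5.28 to 5.34), but the interquartile range of an array moved with the group, at 2.48 to 2.86 on bone marrow and 2.10 to 2.59 on spleen arrays. As a check of the labels, the mean of the classical DC1 markers was 10.14 to 10.61 on CD24 DC, 8.74 to 9.52 on pre-CD8 and 5.72 to 7.40 on other arrays, that of classical DC2 markers 8.38 to 9.12 on CD172a DC and 5.75 to 7.30 on other arrays, and that of progenitor markers 9.19 to 9.52 on CDP and 6.96 to 7.96 on other arrays. The 5 progenitor markers did not all move together. Against CDP, 3 were called lower and 1 higher in CD172a DC, and likewise in CD24 DC. Mean levels of Kit were 8.24 in CDP, 9.70 in CD172a DC and 9.71 in CD24 DC. Array 1 had the widest interquartile range in every group except CD172a DC. The interquartile range was tried as a covariate, and its effect is given with the comparisons between groups.

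The genes formed 1 common pattern. They were chosen with earlier results of these data known, so the shares given here and below can partly reflect that choice. The mean level was highest in CDP for 40 of the 44 measured genes (90.9%), against 21.0% of all 22184 genes. The lowest mean was in CD172a DC for 25 genes (56.8%, against 21.8% of all genes) and in pre-CD4 for 18 (40.9%, against 19.8%). It was in CD24 DC for 1 (2.27%, against 15.1%), which is the box C/D protein gene Nop58. Averaged over the 44 genes, the log2 level was 8.09 ± 0.13 (SD, n = 3) in CDP, 7.41 ± 0.15 (n = 2) in pre-CD8, 7.14 ± 0.15 (n = 2) in pre-CD4, 7.29 ± 0.24 (n = 3) in CD24 DC and 6.95 ± 0.08 (n = 2) in CD172a DC. The 3 CDP arrays stood at 8.23, 7.97 and 8.08, above every other array, and the next highest was pre-CD8 array 1 at 7.52. The CD24 DC arrays (7.51, 7.32 and 7.03) overlapped those of pre-CD8 (7.52 and 7.30) and of pre-CD4 (7.24 and 7.03), and CD172a DC (6.89 and 7.0) lay below all of them. In samples of sorted cells, fewer cells of a type and less RNA per cell cannot be told apart.

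**Figure D1:**
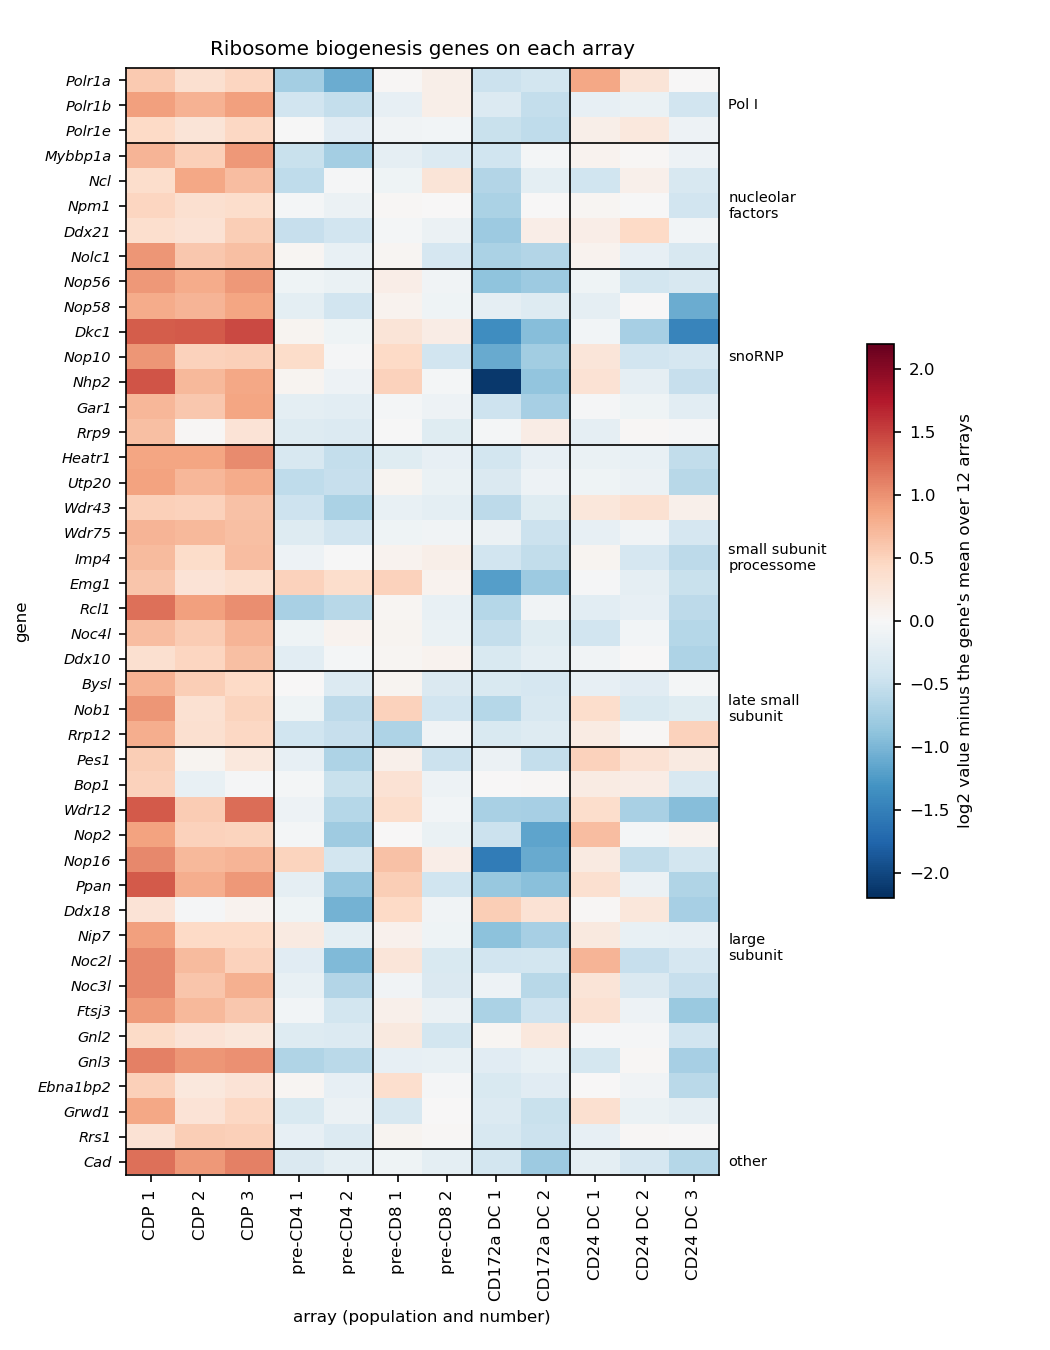
Each row is 1 of the 44 measured genes, ordered by role, and each column is 1 of the 12 arrays; colour gives the log2 value minus that gene's mean over the 12 arrays. The 3 CDP columns are red in nearly every row, and Nhp2, Nop16, Dkc1 and Emg1 are dark blue in CD172a DC.

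Against CDP, 14 of the 44 genes were lower in pre-CD8 cells (31.8%, where 2.47% of all genes were called lower) and 21 were lower in pre-CD4 cells (47.7%, where 2.23% of all genes were called lower). In the spleen groups, 28 were lower in CD24 DC (12.8% of all genes were called lower) and 37 in CD172a DC (14.2% of all genes). None was called higher in any of these 4 comparisons, where 2.29% (pre-CD8), 2.32% (pre-CD4), 8.3% (CD24 DC) and 8.68% (CD172a DC) of all genes were, and the 4 share the same 3 CDP arrays. Among the 44 genes, the count at an unadjusted p under 0.05 in the higher direction was also 0 in each. Median log2 differences over the 44 genes were -0.71 for pre-CD8, -0.94 for pre-CD4, -0.81 for CD24 DC and -1.07 for CD172a DC, beside medians over all genes of 0.03, 0.02, 0.12 and 0.13.

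**Figure D2:**
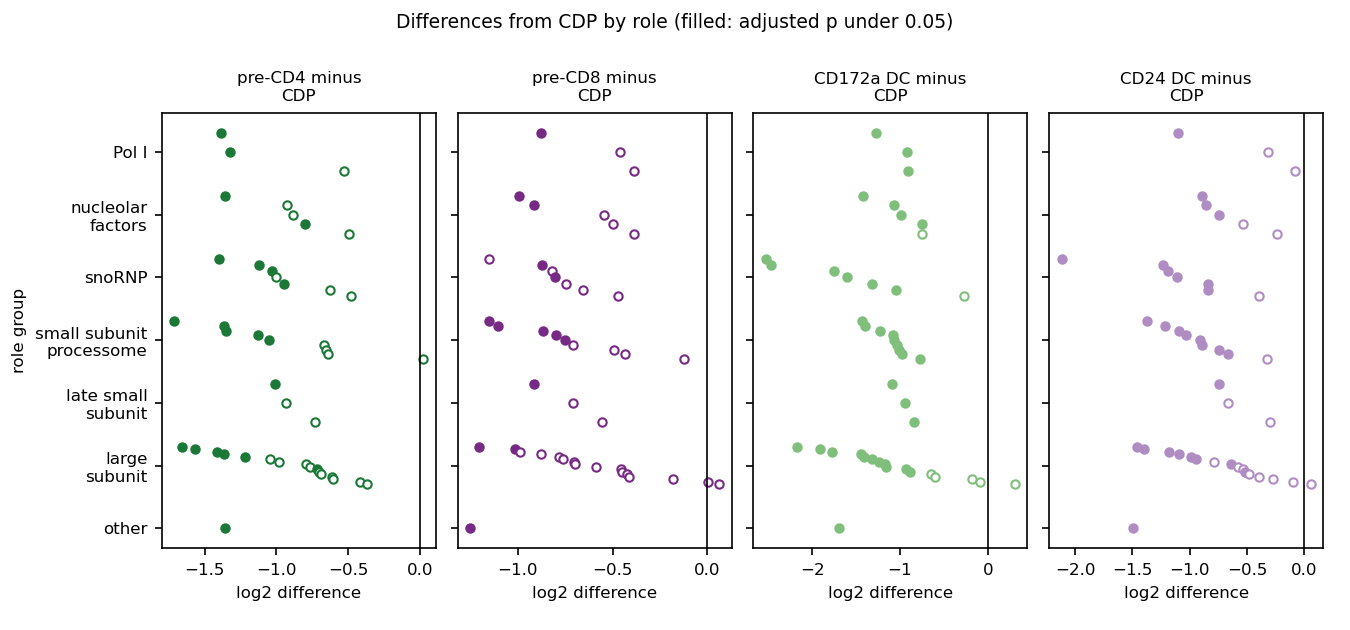
Each point is 1 gene, placed by its log2 difference from CDP (x axis) and its role group (y axis), with a panel for each of the 4 other populations; filled points passed an adjusted p of 0.05 and open points did not. Nearly all points lie left of the line at 0, with Dkc1, at -2.12 in CD24 DC and -2.53 in CD172a DC, the farthest.

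Most of the 44 genes moved in 1 direction from CDP. The DNA around their starts was read from RefSeq promoters (mouse build GRCm38.p6), each window holding 250 bases before and 50 after a start. Windows existed for 39 of the 44 genes. Motifs were searched as exact letters on both strands: CACGTG, the E-box that Myc and its partner bind, CCGGAAG, a core of sites for ETS factors, CCAAT and TATAAA, as well as the palindrome that the factor NRF1 binds. The E-box was present in 7 of the 39 (17.9%), against 9.19% of the 16994 tested genes with a window. It lay before the start in Imp4 and Nop2, and within the 50 bases after it in Grwd1, Mybbp1a, Pes1, Utp20 and Wdr43. CCGGAAG was present in 14 (35.9%, against 12.7%), CCAAT in 13 (33.3%, against 41.6%) and TATAAA in 3 (7.69%, against 14.3%), and the NRF1 palindrome in 0 (against 1.49%). These matches describe letters in a window, not bound sites. The 250 bases before the start, on the plus strand, are printed for the 4 genes with the largest mean falls from CDP to the spleen groups, passing over Nop16, Cad and Nop56, whose windows overlap the span of the gene itself, and Wdr12, which has several windows. Capitals mark every searched motif, on either strand. The windows are Dkc1 (chrX:75095604-75095853), Nhp2 (chr11:51619523-51619772), Ppan (chr9:20887925-20888174) and Rcl1 (chr19:29101125-29101374).
Dkc1: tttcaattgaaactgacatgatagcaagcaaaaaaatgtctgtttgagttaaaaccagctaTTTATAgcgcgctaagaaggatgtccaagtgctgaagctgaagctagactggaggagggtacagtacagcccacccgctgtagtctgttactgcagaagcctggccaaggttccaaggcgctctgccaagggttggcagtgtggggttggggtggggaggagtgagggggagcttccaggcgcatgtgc
Nhp2: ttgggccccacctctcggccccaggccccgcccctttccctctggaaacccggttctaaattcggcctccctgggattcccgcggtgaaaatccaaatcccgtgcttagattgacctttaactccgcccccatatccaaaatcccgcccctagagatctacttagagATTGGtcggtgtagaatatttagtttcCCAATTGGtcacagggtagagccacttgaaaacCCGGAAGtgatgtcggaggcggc
Ppan: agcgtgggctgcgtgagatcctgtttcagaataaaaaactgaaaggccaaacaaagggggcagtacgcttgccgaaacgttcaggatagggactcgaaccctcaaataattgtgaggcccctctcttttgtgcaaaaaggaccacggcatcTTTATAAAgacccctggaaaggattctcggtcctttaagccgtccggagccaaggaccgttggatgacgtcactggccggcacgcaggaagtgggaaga
Rcl1: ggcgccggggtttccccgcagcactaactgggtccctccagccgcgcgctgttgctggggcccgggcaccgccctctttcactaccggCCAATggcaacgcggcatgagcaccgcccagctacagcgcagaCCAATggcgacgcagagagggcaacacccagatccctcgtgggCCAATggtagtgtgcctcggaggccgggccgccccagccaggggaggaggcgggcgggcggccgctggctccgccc
None of the 4 held CACGTG in this stretch. Nhp2 held CCAAT at 3 places and CCGGAAG once, Rcl1 held CCAAT at 3 places, and Dkc1 and Ppan held TATAAA. For comparison, 60 bases around the E-box of Imp4 (chr1:34439681-34439740) and of Nop2 (chr6:125131796-125131855), a small subunit and a large subunit gene, are shown on the plus strand with only CACGTG in capitals.
Imp4: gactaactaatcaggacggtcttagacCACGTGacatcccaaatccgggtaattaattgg
Nop2: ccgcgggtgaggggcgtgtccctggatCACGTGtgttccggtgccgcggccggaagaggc
The first base of the E-box was at position -121 from the start of Imp4 and -60 from that of Nop2.

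Polr1b encodes the second-largest subunit of RNA polymerase I, and its log2 values were 6.98, 6.85 and 6.98 in CDP, 5.67 and 5.56 in pre-CD4, 5.91 and 6.21 in pre-CD8, 5.78 and 5.55 in CD172a DC and 5.89, 5.94 and 5.66 in CD24 DC arrays. CDP arrays were above all others with a clear gap, and the 4 other groups overlapped in part. The log2 difference from CDP was -0.88 ± 0.19 in pre-CD8 (limma adjusted p = 0.0158), -1.32 ± 0.19 in pre-CD4 (0.00124), -1.11 ± 0.17 in CD24 DC (0.000339) and -1.27 ± 0.19 in CD172a DC (0.000321). Polr1a encodes the largest, catalytic subunit, and did not follow it, with values of 8.19, 7.95 and 8.08 in CDP, 6.85 and 6.52 in pre-CD4, 7.64 and 7.73 in pre-CD8, 7.13 and 7.21 in CD172a DC and 8.46, 7.88 and 7.62 in CD24 DC arrays. Here CD24 DC overlapped CDP and pre-CD8, and pre-CD4 lay below every other array. Polr1a was lower than in CDP in pre-CD4 (-1.39 ± 0.24, limma adjusted p = 0.00421) and in CD172a DC (-0.91 ± 0.24, 0.0140), and was not called in pre-CD8 (0.515) or CD24 DC (0.807). Polr1e, for a peripheral subunit, was called lower in CD172a DC (-0.92 ± 0.18, limma adjusted p = 0.00262) and not in pre-CD8 (0.224), pre-CD4 (0.157) or CD24 DC (0.195), and it was not called between CD24 DC and CD172a DC (0.0813).

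Of the 5 nucleolar factors, 2 fell in pre-CD8, 2 in pre-CD4, 3 in CD24 DC and 4 in CD172a DC. Nucleolin (Ncl), an abundant RNA-binding protein of the nucleolus, had log2 values of 10.72, 11.20 and 11.02 in CDP, 9.79 and 10.31 in pre-CD4, 10.25 and 10.62 in pre-CD8, 9.70 and 10.12 in CD172a DC and 9.91, 10.46 and 9.99 in CD24 DC arrays. CDP arrays were above all other arrays, and the rest overlapped freely. The difference from CDP was -0.86 ± 0.23 in CD24 DC (limma adjusted p = 0.0154) and -1.07 ± 0.25 in CD172a DC (0.00774), while pre-CD4 missed the threshold (0.0590). Nucleophosmin (Npm1), a histone and ribosomal protein chaperone, had values of 11.89, 11.77 and 11.79 in CDP, 11.36 and 11.28 in pre-CD4, 11.44 and 11.42 in pre-CD8, 10.72 and 11.41 in CD172a DC and 11.46, 11.40 and 10.98 in CD24 DC arrays. CDP arrays were again the highest, by a small margin, and Npm1 was called in 1 comparison with CDP, that of CD172a DC (-0.75 ± 0.23, limma adjusted p = 0.0297), where its 2 arrays were far apart, and that call was lost when its 2 probe sets were averaged (-0.61, 0.0513). Mybbp1a, a nucleolar regulator of transcription, fell in all 4 groups, by 0.75 ± 0.18 (CD24 DC) to 1.36 ± 0.21 (pre-CD4) on the log2 scale. Nolc1, a chaperone of snoRNPs, likewise fell by 0.80 ± 0.21 (pre-CD4) to 1.42 ± 0.21 (CD172a DC). Ddx21, a nucleolar RNA helicase, was not called in any of the 4.

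Among the snoRNP proteins, 2 of 7 fell in pre-CD8, 4 in pre-CD4, 6 in CD24 DC and 6 in CD172a DC. Dkc1 encodes dyskerin, the pseudouridine synthase of box H/ACA snoRNPs, and its log2 values were 8.56, 8.56 and 8.67 in CDP, 7.27 and 7.12 in pre-CD4, 7.50 and 7.39 in pre-CD8, 5.86 and 6.28 in CD172a DC and 7.16, 6.5 and 5.77 in CD24 DC arrays. CDP arrays were tight and more than 1 unit above all others, both progenitor groups were intermediate, and CD172a DC was below both, while CD24 DC spread over more than 1 unit. The log2 difference from CDP was -1.40 ± 0.31 in pre-CD4 (limma adjusted p = 0.0201), -2.12 ± 0.28 in CD24 DC (9.20e-05) and -2.53 ± 0.31 in CD172a DC (7.68e-05), and in pre-CD8 it missed the threshold (-1.15 ± 0.31, 0.0526). Nhp2, a core protein of the same particle, had values of 8.77, 8.09 and 8.22 in CDP, 7.44 and 7.27 in pre-CD4, 7.89 and 7.33 in pre-CD8, 5.26 and 6.52 in CD172a DC and 7.70, 7.18 and 6.87 in CD24 DC arrays. Only the CD172a DC arrays stood apart at the low end, and they differed from each other by more than 1 unit. Nhp2 was lower than in CDP in CD24 DC (-1.11 ± 0.32, limma adjusted p = 0.0240) and CD172a DC (-2.47 ± 0.36, 0.000252). Nop10, the smallest core protein, had values of 10.00, 9.54 and 9.56 in CDP, 9.44 and 9.0 in pre-CD4, 9.47 and 8.61 in pre-CD8, 7.93 and 8.27 in CD172a DC and 9.31, 8.61 and 8.67 in CD24 DC arrays. It was called in CD24 DC (-0.84 ± 0.27, limma adjusted p = 0.0386) and CD172a DC (-1.60 ± 0.30, 0.00158), with CD172a DC below all other arrays. Gar1, the remaining core protein of the H/ACA particle, fell in all 4 comparisons, by 0.80 ± 0.18 (pre-CD8) to 1.32 ± 0.18 (CD172a DC).

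Box C/D particles carry out methylation and share the core proteins Nop56 and Nop58. The log2 values of Nop56 were 9.49, 9.35 and 9.48 in CDP, 8.43 and 8.39 in pre-CD4, 8.68 and 8.44 in pre-CD8, 7.64 and 7.73 in CD172a DC and 8.44, 8.12 and 8.17 in CD24 DC arrays. The order was clear, with CDP above all other arrays, CD172a DC below all other arrays and the rest between 8.12 and 8.68. The difference from CDP was -0.87 ± 0.18 in pre-CD8 (limma adjusted p = 0.0140), -1.03 ± 0.18 in pre-CD4 (0.00530), -1.19 ± 0.17 in CD24 DC (0.000145) and -1.75 ± 0.18 in CD172a DC (2.24e-05). These values are from the brightest of 3 probe sets for Nop56, and the others disagreed with it: the second had its lowest group mean in CD24 DC, at 4.80, with CD172a DC at 6.44, pre-CD4 at 6.10 and CDP at 7.21, and the third was within 5.71 to 6.38 in every group. With the 3 probe sets averaged, the calls in pre-CD8 (-0.72, limma adjusted p = 0.140) and pre-CD4 (-0.82, 0.0882) were lost, and the fall in CD172a DC was -0.76 (0.0400). Nop58 had values of 9.72, 9.65 and 9.78 in CDP, 8.70 and 8.50 in pre-CD4, 8.98 and 8.82 in pre-CD8, 8.72 and 8.64 in CD172a DC and 8.72, 8.93 and 7.82 in CD24 DC arrays. It was lower in pre-CD4 (-1.12 ± 0.27, limma adjusted p = 0.0321), CD24 DC (-1.23 ± 0.24, 0.00240) and CD172a DC (-1.04 ± 0.27, 0.0135). CD24 DC array 3 lay well below the other arrays of its group for Nop58. Rrp9, a protein of the U3 snoRNP that guides cleavage, was not called in any comparison with CDP.

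Small subunit processome genes were called lower in 5 of 9 for pre-CD8, 5 of 9 for pre-CD4, 8 of 9 for CD24 DC and 9 of 9 for CD172a DC. Heatr1, the homologue of the yeast processome protein UTP10, had log2 values of 8.57, 8.57 and 8.75 in CDP, 7.35 and 7.18 in pre-CD4, 7.44 and 7.52 in pre-CD8, 7.29 and 7.52 in CD172a DC and 7.55, 7.54 and 7.16 in CD24 DC arrays. The 9 arrays outside CDP lay within 7.16 to 7.55, more than 1 unit below CDP, with pre-CD4 below pre-CD8 and both within the range of CD24 DC. The difference from CDP was -1.15 ± 0.19 in pre-CD8 (limma adjusted p = 0.00310), -1.37 ± 0.19 in pre-CD4 (0.00119), -1.22 ± 0.17 in CD24 DC (0.000188) and -1.23 ± 0.19 in CD172a DC (0.000498). Rcl1, which acts in 18S rRNA processing, had values of 7.18, 6.87 and 6.98 in CDP, 5.25 and 5.35 in pre-CD4, 6.00 and 5.81 in pre-CD8, 5.34 and 5.88 in CD172a DC and 5.73, 5.78 and 5.39 in CD24 DC arrays. Its largest difference was in pre-CD4 (-1.71 ± 0.22, limma adjusted p = 0.000535), whose arrays were below all pre-CD8 arrays, and it fell by 1.10 to 1.40 in the other groups. Utp20 and Wdr75, further processome proteins, also fell in all 4, by 0.87 to 1.35 and by 0.80 to 1.05. Emg1, an 18S rRNA methyltransferase, behaved differently, with values of 9.58, 9.27 and 9.33 in CDP, 9.48 and 9.36 in pre-CD4, 9.49 and 9.05 in pre-CD8, 7.76 and 8.17 in CD172a DC and 8.94, 8.77 and 8.48 in CD24 DC arrays. Its progenitor arrays overlapped CDP, and it was called in CD24 DC (-0.67 ± 0.20, limma adjusted p = 0.0287) and CD172a DC (-1.43 ± 0.22, 0.000430) but not in pre-CD8 (0.885) or pre-CD4 (0.987). Wdr43, Imp4, Noc4l and Ddx10 completed the group, with falls in CD172a DC of 0.77 to 1.08.

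Late small subunit factors act as the particle leaves the nucleolus. Nob1, the endonuclease that trims the end of 18S rRNA, had log2 values of 8.04, 7.40 and 7.55 in CDP, 6.98 and 6.49 in pre-CD4, 7.57 and 6.64 in pre-CD8, 6.43 and 6.71 in CD172a DC and 7.46, 6.72 and 6.81 in CD24 DC arrays. CDP array 2, at 7.40, lay below pre-CD8 array 1 and CD24 DC array 1, so those groups overlapped CDP. Nob1 was called in CD172a DC (-1.09 ± 0.32, limma adjusted p = 0.0231). Bysl, which encodes bystin, fell in both spleen groups, by 0.74 ± 0.18 in CD24 DC and 0.94 ± 0.20 in CD172a DC. Rrp12, an export factor, was lower in pre-CD8 (-0.91 ± 0.23), pre-CD4 (-1.01 ± 0.23) and CD172a DC (-0.84 ± 0.23), and its call in pre-CD8 was lost with the array number as a block (limma adjusted p = 0.0642 against 0.0364).

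Large subunit factors were the most mixed group, with 2 of 16 lower in pre-CD8, 6 in pre-CD4, 8 in CD24 DC and 11 in CD172a DC. Gnl3 encodes nucleostemin, a nucleolar GTPase of stem and progenitor cells, and its log2 values were 9.96, 9.82 and 9.86 in CDP, 8.18 and 8.26 in pre-CD4, 8.67 and 8.68 in pre-CD8, 8.60 and 8.69 in CD172a DC and 8.47, 8.87 and 8.11 in CD24 DC arrays. CDP arrays were about 1 unit above every other array, and pre-CD4 was below pre-CD8 and CD172a DC. The difference from CDP was -1.20 ± 0.22 in pre-CD8 (limma adjusted p = 0.00488), -1.66 ± 0.22 in pre-CD4 (0.000635), -1.40 ± 0.19 in CD24 DC (0.000144) and -1.24 ± 0.22 in CD172a DC (0.000995). Ppan, an early large subunit factor, had values of 9.01, 8.46 and 8.60 in CDP, 7.44 and 6.81 in pre-CD4, 8.19 and 7.21 in pre-CD8, 6.82 and 6.73 in CD172a DC and 8.01, 7.53 and 6.99 in CD24 DC arrays. It was lower in pre-CD4 (-1.56 ± 0.34, limma adjusted p = 0.0170), CD24 DC (-1.18 ± 0.30, 0.0126) and CD172a DC (-1.91 ± 0.34, 0.00107), with arrays of pre-CD8 about 1 unit apart. Nop16, a large subunit assembly factor, had values of 8.89, 8.54 and 8.58 in CDP, 8.32 and 7.43 in pre-CD4, 8.47 and 7.97 in pre-CD8, 6.28 and 6.72 in CD172a DC and 8.02, 7.28 and 7.42 in CD24 DC arrays. Its fall was in the spleen groups, at -1.09 ± 0.27 in CD24 DC (limma adjusted p = 0.0102) and -2.17 ± 0.30 in CD172a DC (0.000186), where both arrays were below all others.

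The PeBoW complex, made of Pes1, Bop1 and Wdr12, matures large subunit rRNA, and its 3 genes did not share a call. Wdr12 had log2 values of 8.08, 7.28 and 7.96 in CDP, 6.61 and 6.11 in pre-CD4, 7.11 and 6.68 in pre-CD8, 6.01 and 5.99 in CD172a DC and 7.12, 6.01 and 5.79 in CD24 DC arrays. It was lower in pre-CD4 (-1.41 ± 0.36, limma adjusted p = 0.0409), CD24 DC (-1.46 ± 0.32, 0.00504) and CD172a DC (-1.77 ± 0.36, 0.00291), although CD24 DC array 1, at 7.12, came close to CDP array 2, at 7.28. Pes1 had values of 8.26, 7.78 and 7.96 in CDP, 7.54 and 7.05 in pre-CD4, 7.83 and 7.25 in pre-CD8, 7.59 and 7.20 in CD172a DC and 8.22, 8.03 and 7.91 in CD24 DC arrays. CD24 DC overlapped CDP, and Pes1 was not called in any comparison. Bop1 was not called in any comparison either, with a group mean highest in pre-CD8 (6.67 ± 0.31, SD, n = 2) and CDP at 6.66 ± 0.35 (n = 3). Ddx18, an RNA helicase, was the only gene with its highest mean in CD172a DC, at 9.17 ± 0.15 (n = 2), against 8.87 ± 0.17 (n = 3) in CDP and 8.18 ± 0.67 (n = 2) in pre-CD4. A second, dimmer probe set of Ddx18 had instead its highest mean in CDP, at 7.38, and 6.60 in CD172a DC. Gnl2 and Ebna1bp2 were not called against CDP, and Rrs1, which brings the 5S particle to the large subunit, fell by 0.52 ± 0.16 (CD24 DC) to 0.88 ± 0.18 (CD172a DC) in 3 groups. Its call in pre-CD4 (-0.72 ± 0.18, limma adjusted p = 0.0367) was lost with the array number as a block (0.0599). A second, dimmer probe set of Rrs1 had group means of 5.32 to 5.68, and with both averaged none of the 3 calls was kept (-0.40 in pre-CD4, -0.43 in CD24 DC and -0.48 in CD172a DC, with limma adjusted p = 0.377, 0.104 and 0.101).

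Cad had log2 values of 7.36, 7.12 and 7.27 in CDP, 5.84 and 5.94 in pre-CD4, 6.06 and 5.94 in pre-CD8, 5.76 and 5.36 in CD172a DC and 5.94, 5.79 and 5.53 in CD24 DC arrays. The CDP arrays were more than 1 unit above all others, which overlapped in part. Cad fell by 1.25 ± 0.20 in pre-CD8 (limma adjusted p = 0.00230), 1.36 ± 0.20 in pre-CD4 (0.00168), 1.5 ± 0.18 in CD24 DC (4.69e-05) and 1.69 ± 0.20 in CD172a DC (6.30e-05).

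**Figure D3:**
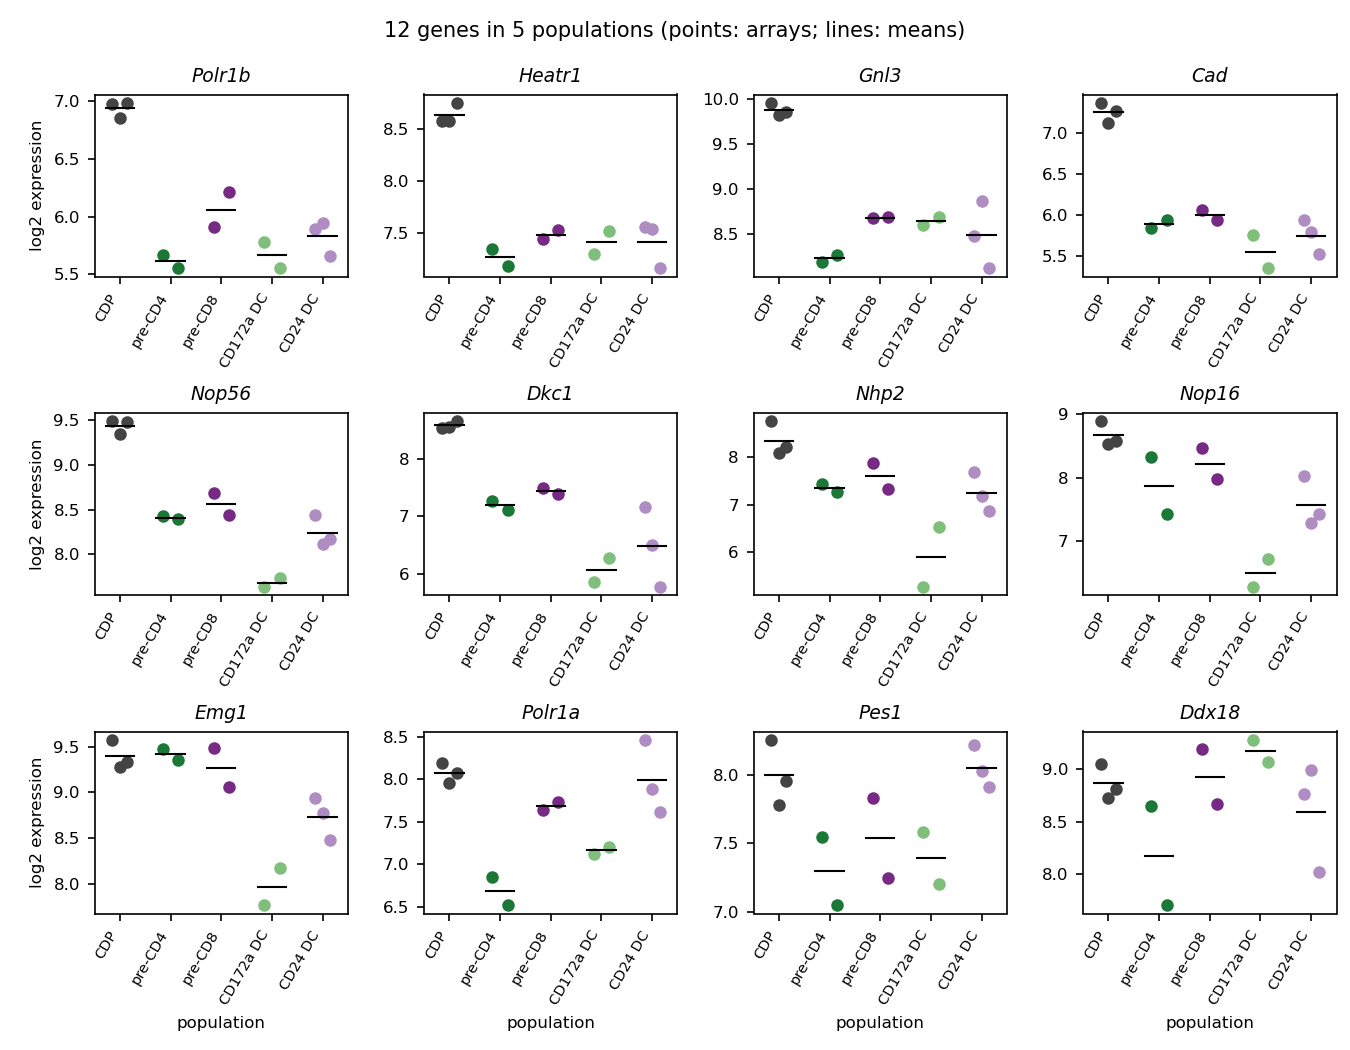
Points are log2 expression values of single arrays and lines are group means for 12 genes in the 5 populations, each panel with its own scale. Polr1b, Heatr1, Gnl3 and Cad are highest in CDP, with all its arrays above the rest; Dkc1, Nhp2, Nop16 and Emg1 are lowest in CD172a DC; Polr1a, Pes1 and Ddx18 depart from the common order.

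The step from CDP to pre-CD8 asked which genes change on commitment to the CD24 DC lineage. The 14 genes lower in pre-CD8 were, besides Cad, Gnl3 and Heatr1, the genes Rcl1, Noc3l, Mybbp1a, Rrp12, Nolc1, Polr1b, Nop56, Utp20, Gar1, Wdr75 and Wdr43. Differences ran from -1.25 for Cad to -0.75 ± 0.19 for Wdr43, and 42 of the 44 genes were below 0, against 45.6% of all genes, the exceptions being Bop1 and Ddx18. Arrays of the 2 groups overlapped only for Nob1, Pes1, Ebna1bp2, Emg1, Bop1 and Ddx18, all uncalled. With 3 arrays against 2, a lack of overlap does not set the 14 called genes apart from the uncalled ones. How many of all genes lacked overlap was not counted, so no conclusion about the list is drawn from it. The count of called genes rested on few arrays. Leaving out CDP array 1, 2 or 3 gave 5, 9 and 4 called genes, leaving out pre-CD8 array 1 or 2 gave 6 and 5, and leaving out all 5 arrays numbered 1 gave 0, while Cad, Gnl3 and Heatr1 kept their calls in every omission of a single array. With the array number as a block 16 genes were called, and with the interquartile range as a covariate 14.

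The step from CDP to pre-CD4 gave 21 lower genes. Besides Rcl1 (-1.71), Gnl3 (-1.66) and Ppan (-1.56), they were Wdr12, Dkc1, Polr1a, Heatr1, Noc2l, Cad, Mybbp1a, Utp20, Polr1b, Noc3l, Wdr43, Nop58, Wdr75, Nop56, Rrp12, Gar1, Nolc1 and Rrs1, the last at -0.72. Of the 44 genes 43 were below 0, against 47.7% of all genes, the exception being Emg1 at 0.02. Calls of Cad, Gnl3, Heatr1, Mybbp1a, Polr1b, Rcl1 and Utp20 were kept in every omission of a single array. Leaving out CDP array 1 or 3 gave 12 and 13 called genes, leaving out pre-CD4 array 1 or 2 gave 12 and 7, and leaving out all 5 arrays numbered 1 gave 9. With the array number as a block it was 25, and with the interquartile range as a covariate 24.

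The progenitors were compared with each other to ask how the lineages differ before the spleen. None of the 44 genes was called between pre-CD8 and pre-CD4, where 0.703% of all genes were called in either direction, and limma gave an unadjusted p under 0.05 for 3 of them (5.61% of all genes). These were Polr1a (1.00 ± 0.26 higher in pre-CD8, adjusted p = 0.147), Rcl1 and Utp20. Of the 44 genes 4 were below 0, against 48.5% of all genes, and the median difference was 0.25, beside 0.01 over all genes. Polr1a was called without CD24 DC array 1 (limma adjusted p = 0.0417) and with the interquartile range as a covariate (0.0179).

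From the progenitors to the spleen, fewer of the genes were called than against CDP. Between CD24 DC and pre-CD8 none of the 44 was called, against 6.31% of all genes in either direction. The count at an unadjusted p under 0.05 in limma was 4 of 44, against 17.4% of all genes: Dkc1 and Emg1 were on the lower side and Wdr43 and Rrp12 on the higher side. The median difference was -0.13, beside 0.05 over all genes, and it was 0.0875 with the interquartile range as a covariate. Without CD24 DC array 1 the count was 2.

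Between CD172a DC and pre-CD4, none of the 44 genes was called higher (4.7% of all genes were). At an unadjusted p under 0.05 in limma, 1 of the 44 was higher. The calls were of 7 genes that fell (15.9%, where 8.02% of all genes were called lower). They were Nhp2 (-1.46 ± 0.39, limma adjusted p = 0.0248), Emg1 (-1.45 ± 0.24, 0.00144), Nop16 (-1.38 ± 0.33, 0.0140), Dkc1 (-1.13 ± 0.34, 0.0442), Nop10 (-1.12 ± 0.33, 0.0380), Nip7 (-0.81 ± 0.24, 0.0452) and Nop56 (-0.72 ± 0.20, 0.0313). Of these, 4 are snoRNP proteins, out of 7 measured, and Nip7 and Nop16 are large subunit factors. The median over the 44 genes was -0.16, beside 0.09 over all genes, and 25 of the 44 were below 0, against 43.2% of all genes. In either direction, 9 of the 44 had an unadjusted p under 0.05 in limma, against 26.4% of all genes. Ddx18 was 1.00 ± 0.35 higher in CD172a DC without a call (limma adjusted p = 0.0842). Its second, dimmer probe set had nearly equal means, 6.53 in pre-CD4 and 6.60 in CD172a DC. Only the call of Emg1 was kept in every omission of a single array. Leaving out CD172a DC array 1 or 2 gave 1 and 3 called genes, CDP array 2 or 3 gave 4 and 3, and pre-CD4 array 1 or 2 gave 2 each, and leaving out all 5 arrays numbered 1 gave 0. With the interquartile range as a covariate 3 genes were called, 2 higher (Ddx18 among them) and 1 lower (Emg1), and the median was 0.17, so the direction of the median depends on that covariate. The fall of Nop56 became a difference of 0.0562 when its 3 probe sets were averaged.

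The spleen groups were set against each other to ask how the mature lineages differ. Nhp2 was higher in CD24 DC than in CD172a DC by 1.36 ± 0.36 (limma adjusted p = 0.0402), and it was the only one of the 44 genes called (3.21% of all genes were called higher and 2.37% lower). The call was lost without CD172a DC array 1, CD24 DC array 1 or 2, CDP array 2 or 3, or either pre-CD4 array, and the difference without CD172a DC array 1 was 0.73. With the array number as a block 7 genes were called, all higher in CD24 DC, among them Nop16 and Nop2, and with the interquartile range as a covariate 6 were, all higher too. Counts of genes called ran from 0 to 8 over the alternatives, with 5 without CD24 DC array 3. At an unadjusted p under 0.05, 15 of the 44 genes were higher in CD24 DC and none lower, against 15.9% of all genes in either direction, and 37 of the 44 were above 0, against 48.5% of all genes. Nop16 (1.08 ± 0.30, adjusted p = 0.0557) and Nop2, an rRNA methyltransferase (1.05 ± 0.29, 0.0556), narrowly missed the threshold without the block. The median difference was 0.33, beside -0.01 over all genes. Whether the lineage difference changed between bone marrow and spleen was tested as an interaction: none of the 44 genes was called (1.03% of all genes in either direction), 3 had an unadjusted p under 0.05 in limma (9.75% of all genes), and the median was 0.07. That median ranged from -0.10 to 0.16 when single arrays were left out, and with the interquartile range as a covariate it was -0.16 and 1 gene was called, so its direction is not settled.

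Set directly against CDP, the falls in the spleen groups were led by Dkc1, Cad and Wdr12 in CD24 DC and by Dkc1, Nhp2 and Nop16 in CD172a DC. Dkc1 had a level 4.34-fold lower in CD24 DC and 5.76-fold lower in CD172a DC than in CDP. In CD24 DC, 18 of the 28 calls were kept in every omission of a single array, among them Cad, Dkc1, Gar1, Gnl3, Heatr1, Nop56, Polr1b, Rcl1 and Wdr12. In CD172a DC it was 24 of 37, including Dkc1, Nhp2, Nop10, Nop16, Nop56, Emg1 and Ppan. Array spread differed between these groups. With the interquartile range as a covariate 12 calls were kept in CD24 DC (Cad, Dkc1, Gar1, Gnl3, Heatr1, Ncl, Noc4l, Nop56, Polr1b, Rcl1, Utp20 and Wdr75) and 10 in CD172a DC (Cad, Dkc1, Gar1, Heatr1, Nhp2, Nolc1, Nop16, Nop56, Polr1b and Rrs1), with medians of -0.46 and -0.73. Without all 5 arrays numbered 1 the counts were 26 and 21.

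Of the other genes of the pathway, 150 were listed from the same processes and 140 were measured. At the early step, smaller shares of them were called lower than of the 44 genes. Both lists were chosen with earlier results of these data known, so this contrast can reflect the choice. In pre-CD8 against CDP 6 of 140 fell (4.29%, against 2.47% of all genes), led by Rrp1b (-1.38 ± 0.22) and the processome gene Utp4 (-1.30 ± 0.27). In pre-CD4 17 fell (12.1%, against 2.23%), led by Utp4 (-2.12 ± 0.27) and Rrp15 (-1.54 ± 0.25), a large subunit factor. Between pre-CD8 and pre-CD4 only Sdad1, a large subunit factor, was called (1.39 ± 0.26 higher in pre-CD8, where 0.383% of all genes were called higher). Between the spleen groups 4 were higher in CD24 DC, which is 2.86% and below the 3.21% of all genes: Sdad1 (2.07 ± 0.23), Rpf2 (1.34 ± 0.30), Fcf1 and Ruvbl1. From pre-CD8 to CD24 DC 6 fell (4.29%, near the 3.66% of all genes), led by the RNase P and MRP subunit gene Rpp30 (-1.42 ± 0.34) and the exosome gene Exosc8 (-1.40 ± 0.29). From pre-CD4 to CD172a DC 16 fell (11.4%, against 8.02%) and 1 rose, with Rpp30 (-1.57 ± 0.38) and Fcf1 (-1.47 ± 0.32) first. Against CDP 66 fell (47.1%, against 12.8%) and 2 rose in CD24 DC, and 77 fell (55.0%, against 14.2%) and 1 rose in CD172a DC. The medians of these genes against CDP were -0.34 in pre-CD8, -0.40 in pre-CD4, -0.71 in CD24 DC and -0.80 in CD172a DC.

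Cell cycle genes, of which 19 of 20 were measured, had another order. Their mean log2 level was 9.32 ± 0.03 (SD, n = 3) in CDP, 9.32 ± 0.03 (n = 2) in pre-CD4, 9.03 ± 0.09 (n = 2) in pre-CD8, 7.37 ± 0.20 (n = 2) in CD172a DC and 7.21 ± 0.51 (n = 3) in CD24 DC. The pre-CD4 and CDP means of the cell cycle genes thus differed by less than their SD, while the pre-CD4 mean over the ribosome biogenesis genes was 7.14 against 8.09. Single cell cycle genes were not all level between these 2 groups. Their log2 differences in pre-CD4 against CDP ran from -1.10 to 0.89, with a median of 0.22 and 8 of the 19 below 0. Of the 19, 1 was called lower in pre-CD4 and 5 in pre-CD8 against CDP. Against the progenitor of the lineage 15 were lower in CD172a DC and 14 in CD24 DC, where 7 and 0 of the ribosome biogenesis genes were called.

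**Figure D4:**
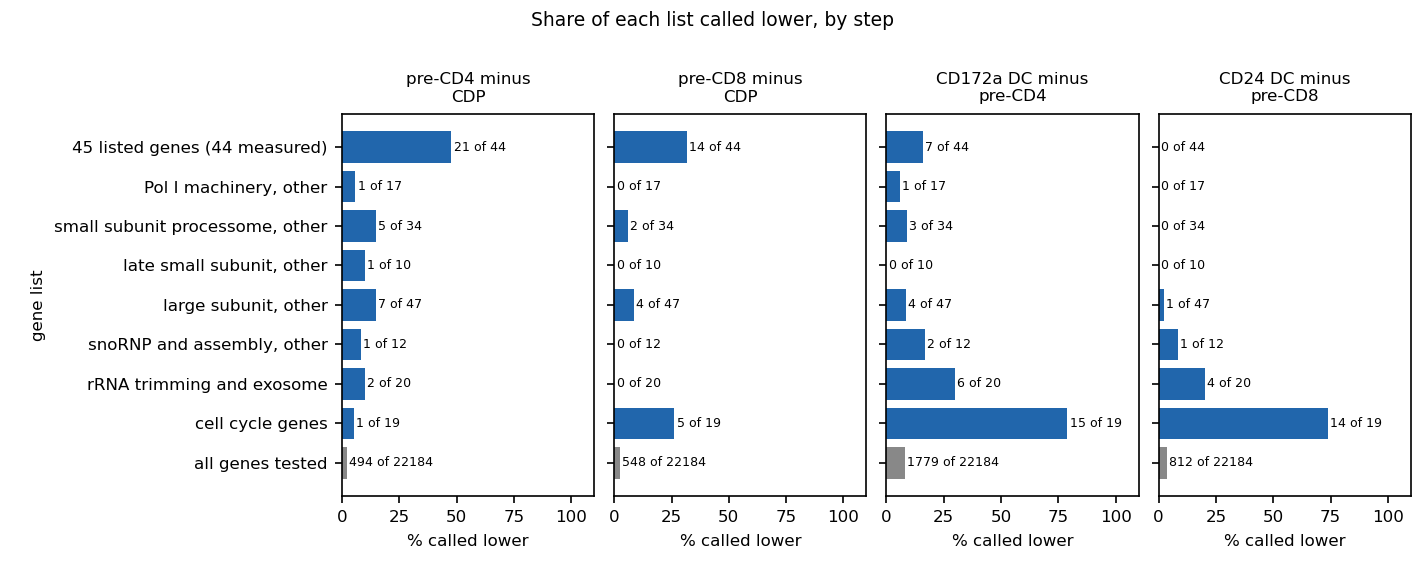
Bars give the percent of measured genes called lower in each list at the 4 steps, with the counts written beside them, for the ribosome biogenesis genes, the other pathway lists, cell cycle genes and all genes tested. The ribosome biogenesis bar is longest at the steps from CDP (21 of 44 and 14 of 44) and the cell cycle bar at the steps into spleen (15 of 19 and 14 of 19).

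**Figure D5:**
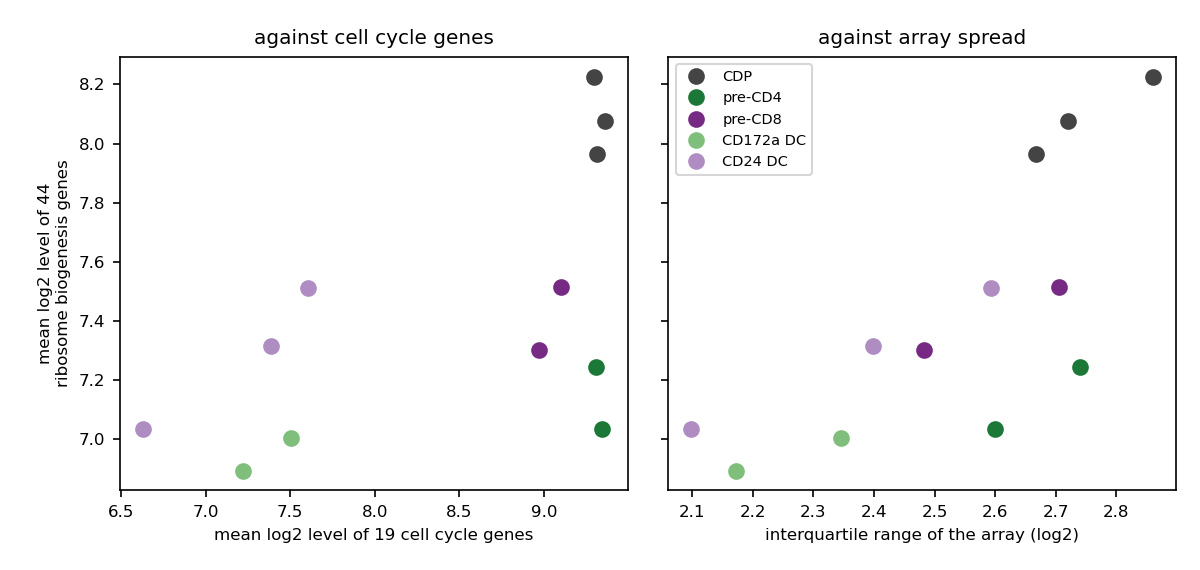
Each point is 1 array; the y axis is the mean log2 level of the 44 ribosome biogenesis genes, and the x axis is the mean log2 level of 19 cell cycle genes (left) or the interquartile range of the array (right). The pre-CD4 and CDP arrays share an x position on the left but differ in height. On the right most spleen arrays lie at the narrow end, while CD24 DC array 1 (2.59) lies within the range of the bone marrow arrays.

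Myc, the activator of many of these genes, had log2 levels of 9.58, 9.02 and 9.06 in CDP, 7.83 and 8.05 in pre-CD4, 8.78 and 8.49 in pre-CD8, 8.63 and 7.82 in CD172a DC and 7.33, 7.04 and 6.67 in CD24 DC arrays. CDP arrays were the highest and CD24 DC the lowest, with no overlap of CD24 DC with any other group. Against CDP, Myc was lower in pre-CD4 (-1.28 ± 0.28, limma adjusted p = 0.0187), CD24 DC (-2.21 ± 0.25, 2.85e-05) and CD172a DC (-1.0 ± 0.28, 0.0203), and was not called in pre-CD8 (-0.59 ± 0.28, 0.346). Myc was also lower in CD24 DC than in pre-CD8 (-1.62 ± 0.28, limma adjusted p = 0.00266) and than in CD172a DC (-1.21 ± 0.28, 0.0207). Mean levels of Mycn were 4.04 to 4.88 in the 5 groups, and of Mycl 4.82 in CDP to 6.13 in CD24 DC. Against CDP, Mycl was called higher in CD24 DC (1.31 ± 0.30, limma adjusted p = 0.00675). It was not called in pre-CD8 (0.236), pre-CD4 (0.768) or CD172a DC (0.734). Among the 11 genes of the Myc network, Mxd1, which encodes a partner of Max that opposes Myc, rose by 2.28 ± 0.25 in CD172a DC and 1.71 ± 0.22 in CD24 DC against CDP.

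Markers of other cell types also moved with the groups. The neutrophil list holds granule genes such as Mpo and Elane, which early myeloid progenitors also express. The mean log2 level of its 8 genes, all measured, was 8.23 to 9.55 on CDP, 7.35 to 9.23 on pre-CD8, 6.61 to 6.65 on pre-CD4, 4.98 to 6.59 on CD172a DC and 4.74 to 6.26 on CD24 DC arrays. Of these 8 genes, 3 were called lower in pre-CD8, 4 in pre-CD4, 4 in CD24 DC and 4 in CD172a DC against CDP. The mean of all 5 plasmacytoid DC genes was 7.80 to 8.35 on pre-CD4 and 6.21 to 6.91 on all other arrays. The mean of all 5 basophil, mast cell and eosinophil genes was 5.77 to 6.84 on pre-CD8 and 4.14 to 5.48 on all other arrays. Over all 12 arrays, the list means were 5.07 to 5.97 for B cells (4 of 5 genes measured), 3.75 to 4.29 for T cells (4 of 5), 4.41 to 5.77 for natural killer cells, 6.13 to 7.12 for monocytes, 4.92 to 5.67 for erythroid cells (2 of 6) and 4.55 to 5.81 for megakaryocytes (3 of 4). The part of these cells in the values of the ribosome biogenesis genes was not tested.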

How the data were processed

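The authors deposited log2 values, 1 for each probe set on each array, with replicates kept apart. Per the labels' protocols, NuGEN kits (Ovation Pico WTA) amplified and biotin-labelled the RNA. How background was corrected and arrays were normalized is not given in the sources used here. Without detection calls, low values were not taken as detected or undetected. Of 35145 probe sets, 23525 had 1 gene symbol in the platform annotation, 1810 several and 9810 none. A gene took its single-symbol probe set of highest mean, which gave 22184 genes. No further normalization was applied.

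Groups came from the sample titles. Differences were tested with limma (version 3.58.1, in R 4.3.3) through its lmFit and eBayes functions (5 group means, residual degrees of freedom 7, prior 6.18), two-sided, with Benjamini-Hochberg adjustment over all genes; the code was tested on simulated data. The number of arrays limits precision, with a median SE over all genes of 0.22 to 0.27 for a comparison of 2 groups.

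The genes, role groups, pathway, cell cycle and marker lists were chosen with earlier results of these data known, so lists are described by counts and medians and no test was made over a list. Named with values in every array are a panel of 13 genes that covers the roles and the 3 genes with the largest called difference, in each direction and comparison. Ddx18, Bop1 and other genes that depart from the common order were named after their values were seen. Of the other pathway genes, those with the largest called differences are named.

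Array numbers are from the titles, which do not say what a number marks. Deviations from group means correlated at r = 0.102 to 0.421 over the 13 same-number pairs without CD172a DC and at -0.16 to 0.02 over the 8 pairs with it. The 24 different-number pairs without CD172a DC ran from -0.421 to 0.357. Pre-CD8 array 2, for example, correlated at 0.357 with CD24 DC array 3 and at 0.102 with CD24 DC array 2. Deviations in a group of 2 arrays mirror each other, so the pairs are not independent. Whether the number pairs arrays is therefore not settled, and the number as a block is given only as an alternative. Others were quantile normalization, centring arrays on medians, leaving out genes below the 40th percentile, averaging or separately testing probe sets, fitting only the groups compared, a trended robust prior, the interquartile range as a covariate, leaving out each array and leaving out all 5 arrays numbered 1. Alternatives were run for the ribosome biogenesis genes, not for single genes of other lists.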

Additional observations from a re-analysis of the deposited data

How the results depend on the processing

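Over 22 alternatives, the medians over the ribosome biogenesis genes stayed below 0 in pre-CD8, pre-CD4, CD24 DC and CD172a DC against CDP and above 0 between pre-CD8 and pre-CD4 and between CD24 DC and CD172a DC. Omitting single arrays gave ranges of genes called of 4 to 17 (pre-CD8 against CDP), 7 to 24 (pre-CD4 against CDP), 0 to 1 (between the progenitors), 0 to 2 (pre-CD8 to CD24 DC), 1 to 8 (pre-CD4 to CD172a DC), 0 to 5 (between the spleen groups), 20 to 31 (CD24 DC against CDP), 27 to 39 (CD172a DC against CDP) and 0 to 0 (interaction), with medians of -0.78 to -0.56, -1.07 to -0.88, 0.16 to 0.35, -0.26 to -0.01, -0.21 to -0.04, 0.16 to 0.38, -0.89 to -0.72, -1.16 to -1.03 and -0.10 to 0.16 in the same order. Where an omission left 1 array in a group, that array was assumed to vary like the other groups.

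With the interquartile range as a covariate, the counts were 1 (between the progenitors), 3 (pre-CD4 to CD172a DC, 2 higher and 1 lower), 6 (between the spleen groups), 12 and 10 (CD24 DC and CD172a DC against CDP) and 1 (interaction), and medians turned to 0.0875 (CD24 DC against pre-CD8), 0.17 (CD172a DC against pre-CD4) and -0.16 (interaction) or moved to -0.46 and -0.73 (CD24 DC and CD172a DC against CDP). Without the 5 arrays numbered 1, the counts were 0 (CDP to pre-CD8), 9 (CDP to pre-CD4), 0 (pre-CD4 to CD172a DC), 0 (between the spleen groups) and 21 (CD172a DC against CDP). For CD24 DC against CD172a DC, other counts were 6 with quantile normalization, 0 with median centring, 8 with the filter on dim genes, 2 with probe sets averaged, 0 with only those groups fitted and 5 with a trended robust prior. The median against CDP was -0.59 in CD24 DC and -0.85 in CD172a DC with quantile normalization, and -1.30 in CD172a DC with median centring, which also moved the median of all genes there from 0.13 to -0.09. Averaging probe sets turned Nop56 to 0.0562 in CD172a DC against pre-CD4. The cause of these changes was not tested.

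With the array number as a replicate block, counts were 16 (CDP to pre-CD8), 25 (CDP to pre-CD4), 8 (pre-CD4 to CD172a DC, 7 lower and 1 higher), 7 (between the spleen groups), 31 and 40 (CD24 DC and CD172a DC against CDP) and 0 in the other 3. Of the calls made without the block, it ended those of Rrp12 in pre-CD8 and Rrs1 in pre-CD4. Groups of 2 arrays, and signal near an unknown background, limit what could be called.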
